A study of Bos taurus with 15 samples.

Results

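MBP, PMP22 and S100B are genes of myelin and of the Schwann cells that wrap the axons of peripheral nerve. They were followed here across biceps brachii, a muscle of the upper forelimb, of 15 cattle. They were listed by name, with no measured threshold, and each was found on the array by its symbol or by its gene identifier. All 3 were measured, out of 15305 named genes tested. MBP is read by probe A_73_112121 (designed on XM_610209), PMP22 by probe A_73_121412 (XM_614282) and S100B by probe A_73_110019 (NM_001034555). Each gene has 1 probe, printed as 2 spots on every array. A further probe annotated as a PMP22 claudin domain protein belongs to TMEM225, and was not taken as a member.

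Total RNA of each muscle was hybridised to a 1-colour Agilent bovine array, with 1 array per animal. The 8 treated animals, P25 to P32, were given prednisolone, a synthetic glucocorticoid, at 30 mg per head by mouth daily for 35 days, and their RNA was extracted with TRIzol and cleaned with the RNeasy MinElute kit. The 7 controls, C17, C18 and C20 to C24, had their RNA extracted with the RNeasy Mini kit. Every control is labelled CONTROL, yet the treatment text of these samples names Finaplix, Revalor, and Revalor with dexamethasone, without saying who received what. Because the kits differ as the groups do, group and extraction cannot be told apart. The labels give no breed and no age.

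The share of spots with a value ran from 72.1% to 87.4% over the 15 arrays, and on the treated arrays 65.0% to 72.6% of probes lay well above background. The labelled tissue was borne out by its own transcripts: all 9 measured muscle fibre markers were well above background on all 8 treated arrays. On 2 arrays, C20 and P31, transcripts of testis germ cells stood above those of the other animals, with a mean centred log2 score of 4.25 and 3.27 against at most 1.84 elsewhere. In the list of these germ cell transcripts, 11 of 12 genes had the lower mean in treated animals (10 to 11 under other scalings). The score and the summed intensity rest on the 4 of them with a value on all arrays that were well above background on all treated arrays; that sum ran from 1463 to 102551 in controls and from 870.3 to 53136 in treated animals, and PRM2 was not above background on any treated array. Member differences are therefore given with and without C20 and P31. Thymocyte markers stood out on other arrays, with a score of 3.95 on C17, 2.78 on P30 and 2.40 on P32, against at most 1.05 elsewhere. The cartilage and tendon score, over 4 genes, was 3.02 on P26, 2.60 on P25 and 1.83 on C18, against at most 0.90 elsewhere. The hepatocyte score was highest on P26, at 1.64. No fit left out together the animals high in thymocyte markers, or those high in cartilage and tendon markers.

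Myelin is a stack of glial membrane that insulates an axon and speeds conduction. In a peripheral nerve each myelinating Schwann cell forms 1 segment of it, and nonmyelinating Schwann cells hold the thin axons and cap the nerve terminal on the muscle fibre. Compact myelin is held together by structural proteins in and on the membrane. The sheath is laid down under transcription factors such as SOX10 and EGR2 and in response to axonal neuregulin, which the receptor pair ERBB2 and ERBB3 reads. Muscle holds few Schwann cells beside its fibres, so their transcripts are diluted in total RNA. In a bulk sample, fewer cells of a type and less RNA per cell cannot be told apart.

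MBP, the basic protein that joins the cytoplasmic faces of the membrane, was the only member whose group difference had an unadjusted p below 0.05. Its level on the log2 intensity scale was 6.48 on C17, 6.49 on C18, 5.75 on C20, 6.62 on C21, 6.41 on C22 and on C23, and 6.29 on C24. In the treated animals it was 7.08 on P25, 6.13 on P26, 7.10 on P27, 6.76 on P28, 6.88 on P29, 6.39 on P30, 6.66 on P31 and 6.73 on P32. The groups overlapped: 6 of 8 treated animals lay above the highest control, and P26 and P30 lay within the control range. Controls averaged 6.35 ± 0.28 (SD, n = 7) and treated animals 6.72 ± 0.33 (SD, n = 8). The log2 difference of 0.37 (SE 0.16, 95% interval 0.019 to 0.72) corresponds to a 1.29-fold higher mean in treated animals, with an interval of 1.01 to 1.64. It did not pass the threshold of limma's moderated test after Benjamini-Hochberg adjustment over all 20894 probes (unadjusted p = 0.0399, adjusted p = 0.993), and a two-sided exact permutation test over the 6435 splits of the animals gave p = 0.0375.

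The MBP difference was smaller without C20, the lowest animal of all, at 0.27, and without C20 and P31 together, at 0.28 (95% interval -0.063 to 0.61). It was 0.45 without P26, the lowest treated animal. With each animal left out in turn, the unadjusted p lay between 0.0093 and 0.0923 and was below 0.05 in 6 of 15 fits. The MBP probe is dim. On the treated arrays its mean signal was 2.66 to 4.40 times the local background (median 3.56), against a median of 80.6 times for PMP22 and 47.4 times for S100B. With an offset of 50 intensity units added before the logarithm, which compresses dim probes, the MBP difference was 0.24.

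**Figure D1:**
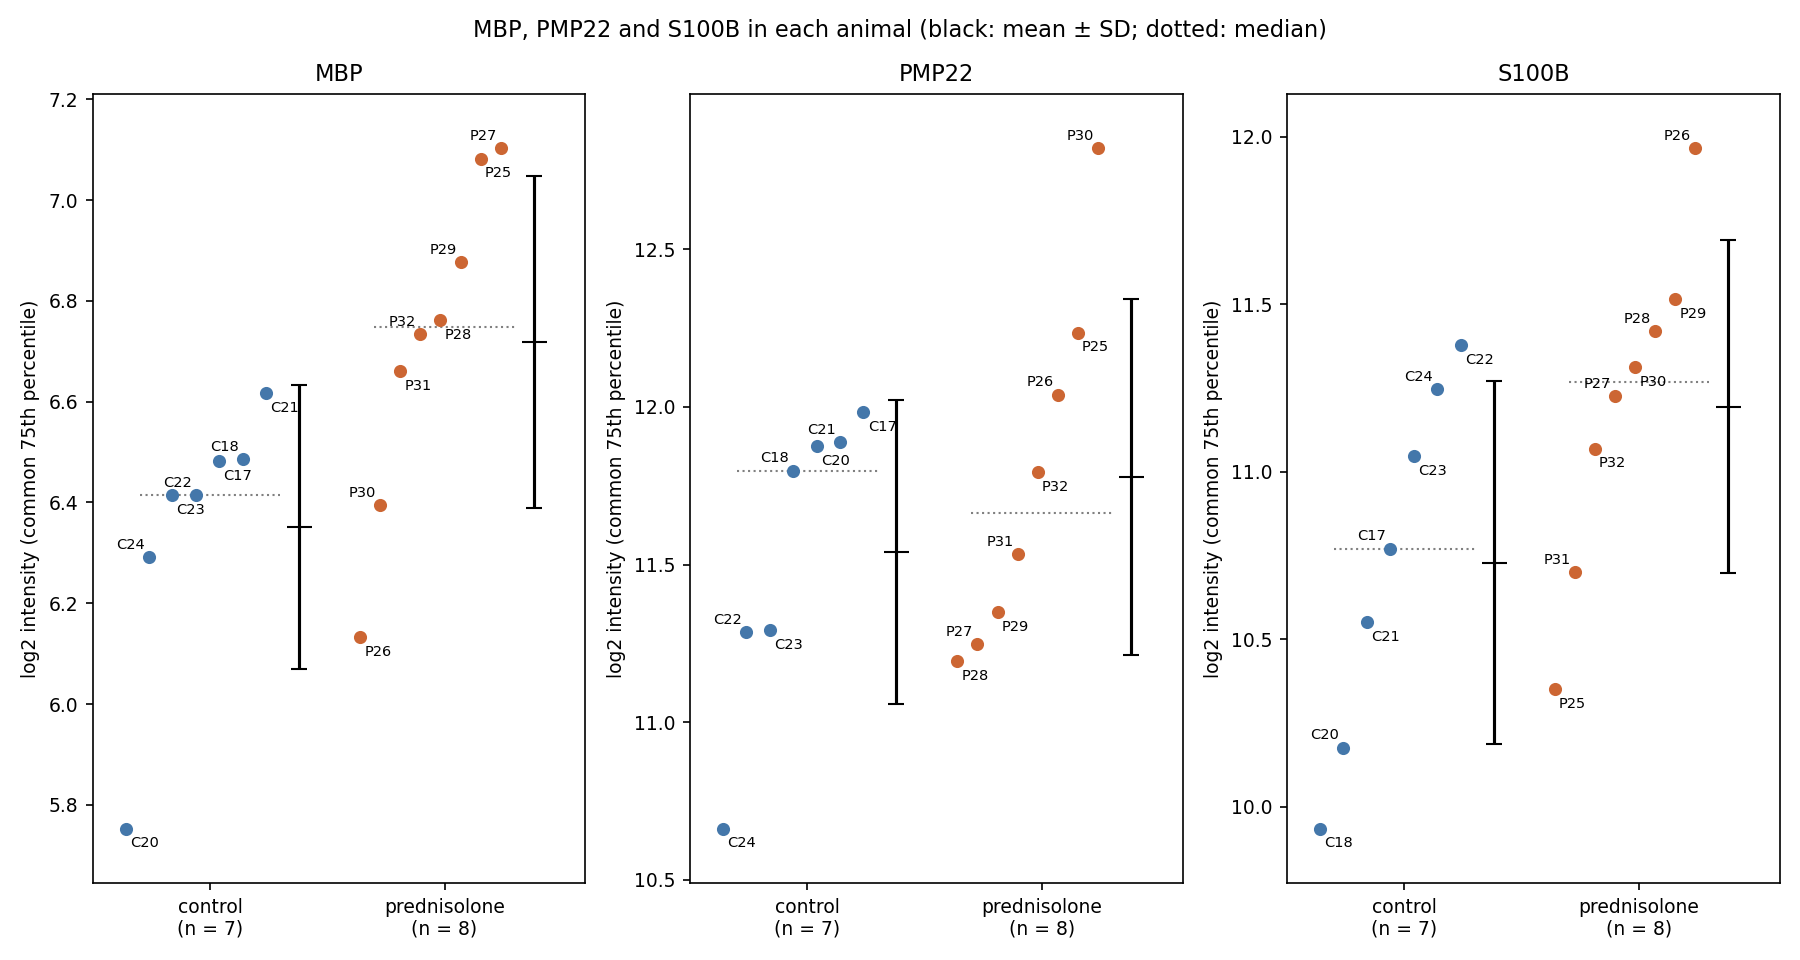
Log2 intensity of MBP, PMP22 and S100B in each animal, with controls in blue and prednisolone-treated animals in orange; each point is 1 animal, the black bars are the group mean ± SD and the dotted lines the group medians. MBP of 6 of the 8 treated animals lies above all controls, the PMP22 medians lie in the opposite order to the means, and S100B is highest on P26. Vertical axes differ between genes and do not start at 0, and levels are not comparable between probes.

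PMP22, a membrane protein of compact myelin whose dosage is known to matter for nerve, spread over a 4.46-fold range between animals, and its mean and median moved in opposite directions between the groups. Its log2 level was 11.98 on C17, 11.80 on C18, 11.88 on C20, 11.89 on C21, 11.29 on C22 and on C23, and 10.66 on C24. In the treated animals it was 12.24 on P25, 12.04 on P26, 11.25 on P27, 11.19 on P28, 11.35 on P29, 12.82 on P30, 11.53 on P31 and 11.79 on P32. P30, P26 and P25 lay above every control, the other 5 treated animals lay below the control median, and C24 was the lowest of all. Controls averaged 11.54 ± 0.48 (SD, n = 7) and treated animals 11.78 ± 0.56 (SD, n = 8), a log2 difference of 0.24 (SE 0.26, 95% interval -0.32 to 0.80; limma, adjusted p = 0.993). The difference of the medians was -0.13. An exact permutation test of the means, two-sided, gave p = 0.411. The mean difference was 0.088 without P30 and 0.092 without C24, and 0.33 (95% interval -0.31 to 0.96) without C20 and P31.

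S100B, a calcium-binding protein widely used as a Schwann cell marker and also present in adipocytes, had the largest mean difference of the 3 members, and its interval included 0. Its log2 level was 10.77 on C17, 9.93 on C18, 10.18 on C20, 10.55 on C21, 11.38 on C22, 11.05 on C23 and 11.25 on C24. In the treated animals it was 10.35 on P25, 11.97 on P26, 11.23 on P27, 11.42 on P28, 11.51 on P29, 11.31 on P30, 10.70 on P31 and 11.07 on P32. The groups overlapped widely: P26, P28 and P29 lay above the highest control, and no treated animal lay below the lowest. Controls averaged 10.73 ± 0.54 (SD, n = 7) and treated animals 11.19 ± 0.50 (SD, n = 8), a log2 difference of 0.47 (SE 0.26, 95% interval -0.085 to 1.02) or 1.38-fold (0.94 to 2.02). Limma gave an unadjusted p of 0.0916 and an adjusted p of 0.993, and the two-sided exact permutation test p = 0.106. The difference was 0.34 without C18 and 0.59 without P25, and without C20 and P31 it was 0.44 (95% interval -0.14 to 1.03), while with limma's array weights it was 0.28.

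No probe passed an adjusted p of 0.05 in limma: 0 of 15305 genes were called (0.0%), and 491 (3.21%) had an unadjusted p below 0.05. Among all genes, 246 (1.61%) had an unadjusted p below 0.05 with the higher mean in treated animals, and among the 10247 genes that were well above background on each treated array 160 had (1.56%). MBP, 1 of the 3 members, was such a gene, at rank 385 of all genes by p. In 34 genes (0.222%) the groups did not overlap, and no member was among them.

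**Figure D2:**
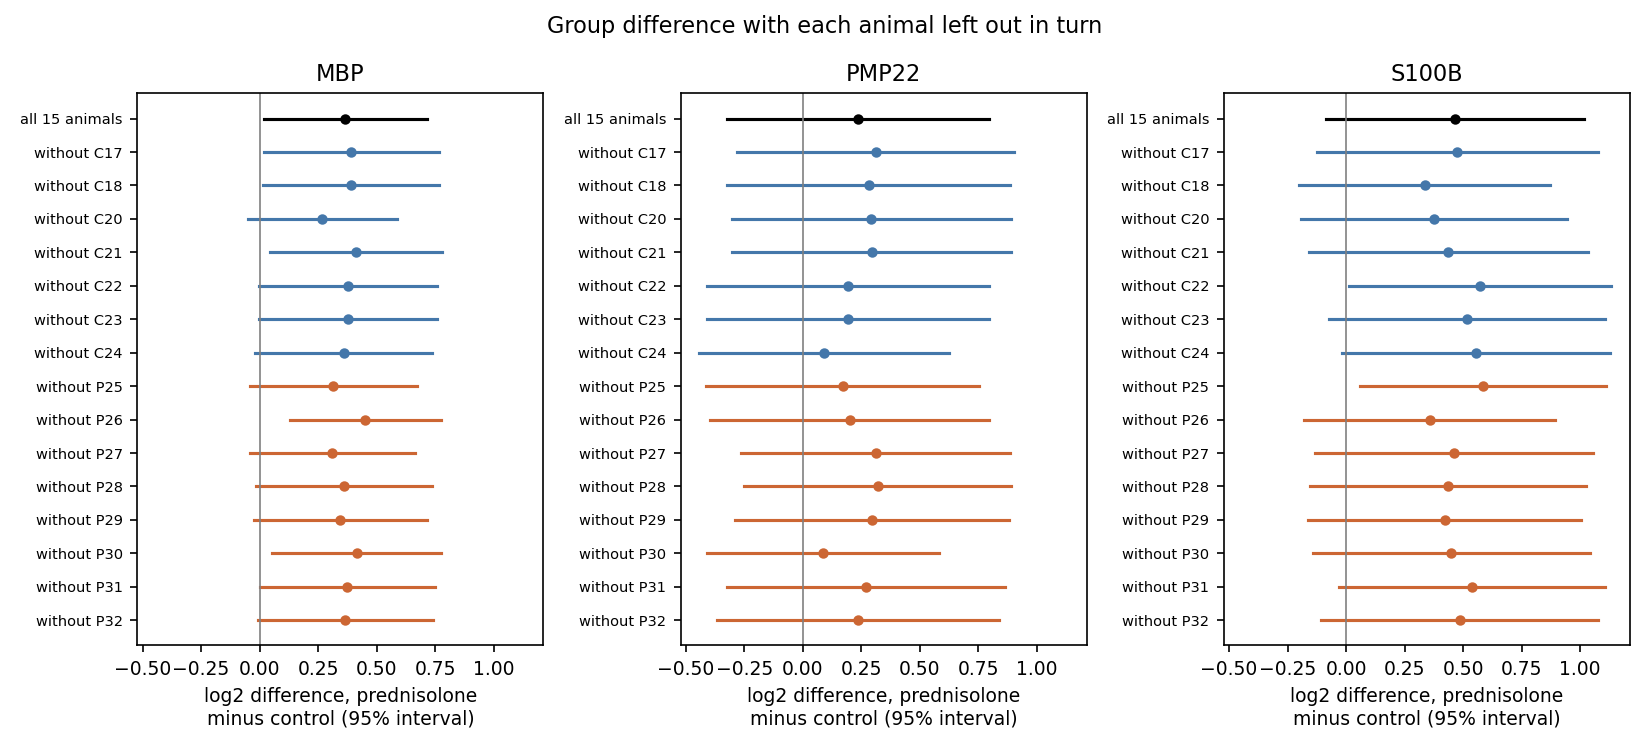
Log2 difference of each member, prednisolone minus control, with all 15 animals (black) and with each animal left out in turn (blue where a control was left out, orange where a treated animal was); lines are 95% intervals of the limma fit. All differences stay above 0, and the PMP22 difference is 0.088 without P30 and 0.092 without C24. The PMP22 fit without C20 and P31 together, 0.33 (95% interval -0.31 to 0.96), is not drawn.

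At the median, the gap between the 2 spots of a probe was far smaller than the full range over animals. The median gap between spots was 0.059 for MBP, 0.095 for PMP22 and 0.037 for S100B on the log2 scale, while the range over animals was 1.35, 2.16 and 2.03. The largest spot gaps of MBP (0.42) and S100B (0.37) were both on P30, and that of MBP was larger than the MBP group difference of 0.367. On the treated arrays none of the 48 member spots was flagged as a feature outlier by the scanner software, and none was saturated. Outlier flags of the local background are separate, and S100B on P25 had a spot with such a flag. Animals on the same slide could lie far apart: P25 and P26 shared a slide and differed by 0.95 in MBP and by 1.61 in S100B, and P29 and P30 shared another and differed by 1.47 in PMP22. P27 and P28, also on 1 slide, differed by 0.34, 0.054 and 0.19 in MBP, PMP22 and S100B. For controls, slide positions were not used here.

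The 3 members did not rise and fall together across animals. Over the 15 animals, MBP and PMP22 had a Pearson r of -0.11 (permutation p = 0.701) and a Spearman rho of -0.20 (p = 0.474), and r was 0.069 without C20 and P27. MBP and S100B had r = 0.056 (permutation p = 0.844) and rho = -0.029 (p = 0.923), and without C20 and P27, the animals farthest from the MBP median, r was -0.37. PMP22 and S100B had r = -0.23 (permutation p = 0.405) and rho = -0.30 (p = 0.279), and r was -0.43 without C24 and P30. Adjusted over these 3 relations, the p-value of r was 0.844 for each pair. Within groups the signs varied: the MBP and S100B levels correlated with r = 0.23 in controls and -0.61 in treated animals, the PMP22 and S100B levels with -0.72 and -0.12, and the MBP and PMP22 levels with 0.0058 and -0.47. P26 shows the lack of a common order best: it had the highest S100B level of all animals, the lowest MBP level of the treated animals, and the third highest PMP22 level. P26 also had the highest cartilage and tendon score, 3.02, and the part of such tissue in its member levels was not tested.

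**Figure D3:**
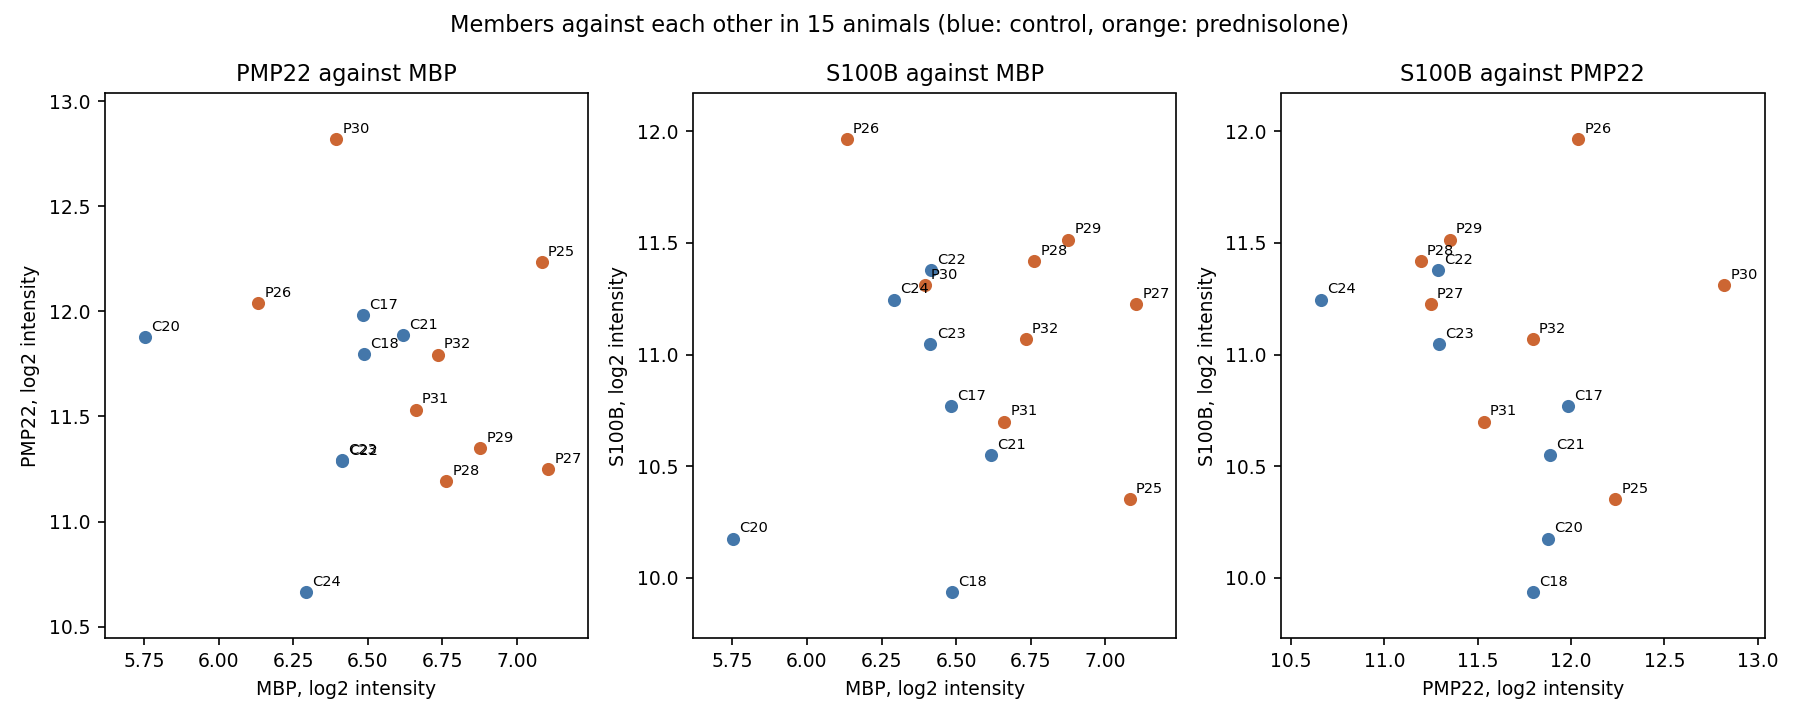
Log2 intensity of PMP22 against MBP, of S100B against MBP and of S100B against PMP22; each point is 1 of the 15 animals, blue for control and orange for prednisolone. The points form no common slope, with r of -0.11, 0.056 and -0.23, and P30 and P26 mark the highest PMP22 and S100B levels; C22 and C23 coincide in the left panel.

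The members were also set against 5 further genes of nerve, as all 28 pairs of these 8 genes, chosen after the values had been seen. PMP2, the myelin fatty acid-binding protein, varied most between animals, from 1.31 on C18 to 7.12 on P30 on the log2 scale, and was well above background on 3 of 8 treated arrays. ERBB3, the neuregulin receptor of Schwann cells, ran from 4.49 on P29 to 7.47 on P30. P30 thus had the highest level of PMP2, ERBB3 and PMP22. Its MBP level, 6.39, lay close to the control median of 6.41, with a gap of 0.42 between its spots.

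No pair passed an adjusted permutation p of 0.05; the smallest, adjusted over the 28, was 0.312. MBP and EGR2, the transcription factor that drives myelination, had r = 0.60 (adjusted permutation p = 0.312) and rho = 0.42, with r = 0.92 within controls and 0.45 within treated animals, and r was 0.21 without C20 and P27. PMP22 and ERBB3 had r = 0.56 (adjusted permutation p = 0.312) and rho = 0.49, with r = 0.78 within controls and 0.53 within treated animals, and r was 0.32 without C24 and P30. S100B had r between -0.17 and 0.26 with the 5 genes: 0.100 with PMP2, -0.072 with ERBB3, 0.14 with EGR2, 0.26 with NGFR (the low-affinity neurotrophin receptor of nonmyelinating and immature Schwann cells) and -0.17 with CNP (a phosphodiesterase of noncompact myelin). PMP2 and ERBB3 had r = 0.55 (adjusted permutation p = 0.312) and rho = 0.48, and r was 0.42 without P30 and C22.

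**Figure D4:**
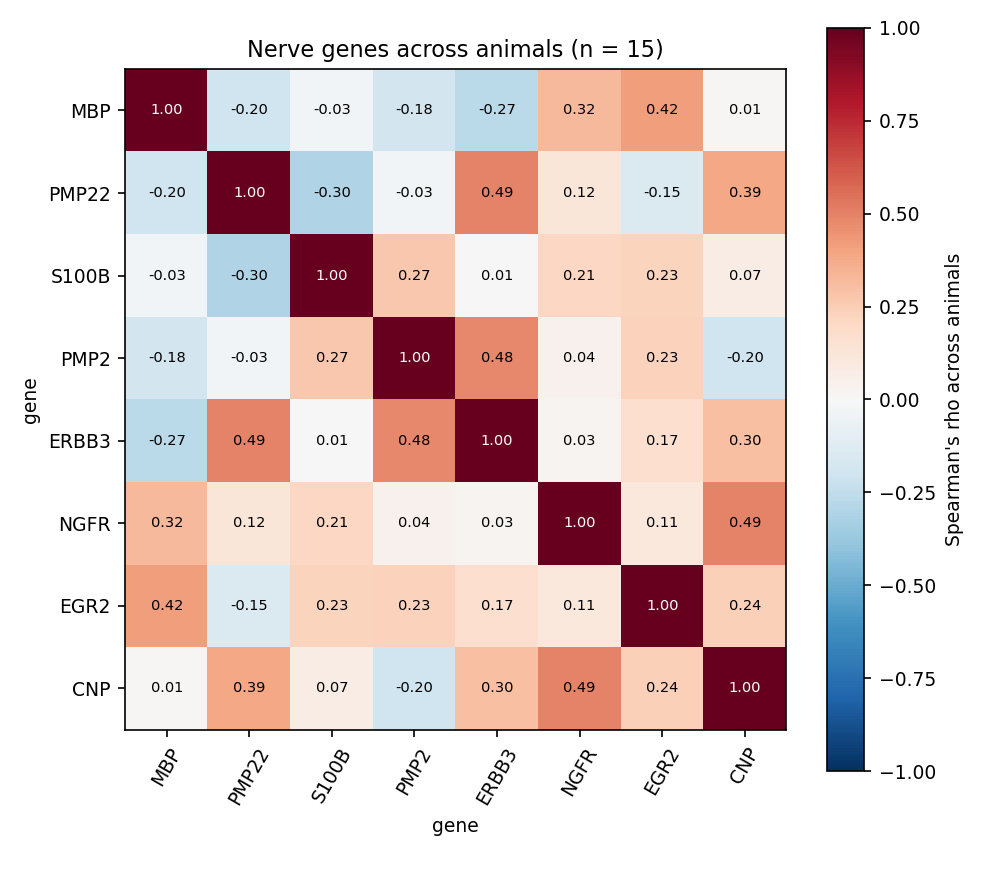
Spearman's rho over 15 animals between the 3 members and 5 further nerve genes, on a colour scale from -1 (blue) to 1 (red). The pairs among MBP, PMP22 and S100B lie between -0.30 and -0.029, and the warmest pairs of a member are PMP22 with ERBB3 (0.49) and MBP with EGR2 (0.42).

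The 5 genes most like each member over the 15 animals were outside the nerve lists, which make up a small share of the genes searched. They were drawn from 9980 genes with a value on all arrays that were well above background on all 8 treated arrays, and r is given as a description. Of the genes that met this filter, 36 were in the myelin and Schwann cell lists, members included. The axon list held 4 and the junction list 9. With so few list genes, absence from the top 5 says little about the members. For MBP they were SPRYD3 (r = 0.84), IER2 (0.82), PAX4 (0.82), CERS5 (0.79) and TNKS1BP1 (0.78). For PMP22 they were PHGDH (0.83), DERL1 (0.81), PLTP (0.80), SEC24B (0.76) and PRKAR1A (0.76), and for S100B PFDN2 (0.88), CASQ2 (0.87), RSPO3 (0.86), MIB1 (0.86) and PALMD (0.86). None of these 15 genes is in the nerve or marker lists, which does not show whether nerve expresses them. By the same measure the nearest gene of the nerve lists was at rank 75 for MBP (LGI4, a secreted Schwann cell protein, r = 0.64), at rank 197 for PMP22 (ZEB2, r = 0.56) and at rank 101 for S100B (DRP2, a protein of the Schwann cell surface complex, r = 0.75).

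In the wider set of genes of myelin and Schwann cells, means were split between the groups. Of 66 such genes, 62 were measured. Of these, 34 had the higher and 28 the lower mean in treated animals, with a median log2 difference of 0.034 against 0.010 over all genes. Over all genes, 7984 of 15305 had the higher mean (7613 to 9027 under other scalings), which is the background for this count and for those by list below. Under the other scalings of the arrays between 32 and 38 of the 62 had the higher mean. Without the 3 members the split was 31 to 28 with a median of 0.021. In limma, 0 of the 62 passed an adjusted p of 0.05, and MBP was the only gene whose brightest probe had an unadjusted p below 0.05. Dimmer probes of ITGA6 (-0.60, limma, unadjusted p = 0.0230) and NGFR (0.56, limma, unadjusted p = 0.0278) were also below it, as was 1 of FASN given below. The NGFR probe was not well above background on any treated array, and the adjusted p of each was 0.993. PRX, CNTN2, SOX10 and POU3F2 were not measured. MAG, CNTN1, GLDN, FA2H, NAB2, FOXD3, L1CAM, ADGRG6 and SCN7A were not well above background on any treated array.

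By role, 5 of the 9 compact myelin genes had the higher mean in treated animals, with a median difference of 0.10. PMP2 differed by -0.26 (95% interval -2.35 to 1.84) and the tetraspanin CD9 by -0.32 (-0.98 to 0.34), the last well above background on 4 of 8 treated arrays. Of 13 measured genes of noncompact myelin and of its contact with the axon, 8 had the higher mean. Among them were the gap junction protein GJB1, at 0.33 (-0.27 to 0.93), the adhesion molecule CADM4, at 0.26 (-0.19 to 0.72), and NDRG1, at 0.20 (-0.16 to 0.57), while CNP lay at -0.001 (-0.40 to 0.39) and at 0.020 with the arrays set to equal medians. Other scalings put 8 to 10 of these 13 genes higher. All of these intervals include 0.

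The 10 genes of myelin lipid synthesis were split 5 to 5, with a median of 0.0096, and 7 to 3 after quantile normalization. CERS2, which makes ceramides of very long chain, had the narrowest interval of those named, at 0.22 (95% interval -0.010 to 0.46; limma, unadjusted p = 0.0594). GALC, which degrades galactosylceramide, differed by -0.19 (-0.50 to 0.12) and FASN, the fatty acid synthase, by 0.17 (-0.24 to 0.58) on its brightest probe; of 3 dimmer FASN probes, 2 that were above background on all treated arrays gave 0.41 (-0.086 to 0.90) and 0.39 (0.031 to 0.75; limma, unadjusted p = 0.0352, adjusted p = 0.993), and the last 0.13 (-0.21 to 0.48). Of 10 measured transcription factors, 7 had the higher mean (6 to 8 under other scalings); EGR2 differed by 0.062 (-0.25 to 0.38), and PAX3, FOXD3 and POU3F1 were well above background on at most 1 treated array. Of 20 genes of the Schwann cell surface, 9 had the higher mean (8 to 10 under other scalings), with a median of -0.017: NGFR differed by 0.40 (-0.12 to 0.92), ERBB3 by -0.29 (-1.20 to 0.63) and the proteolipid GPM6B by -0.39 (-0.86 to 0.085).

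**Figure D5:**
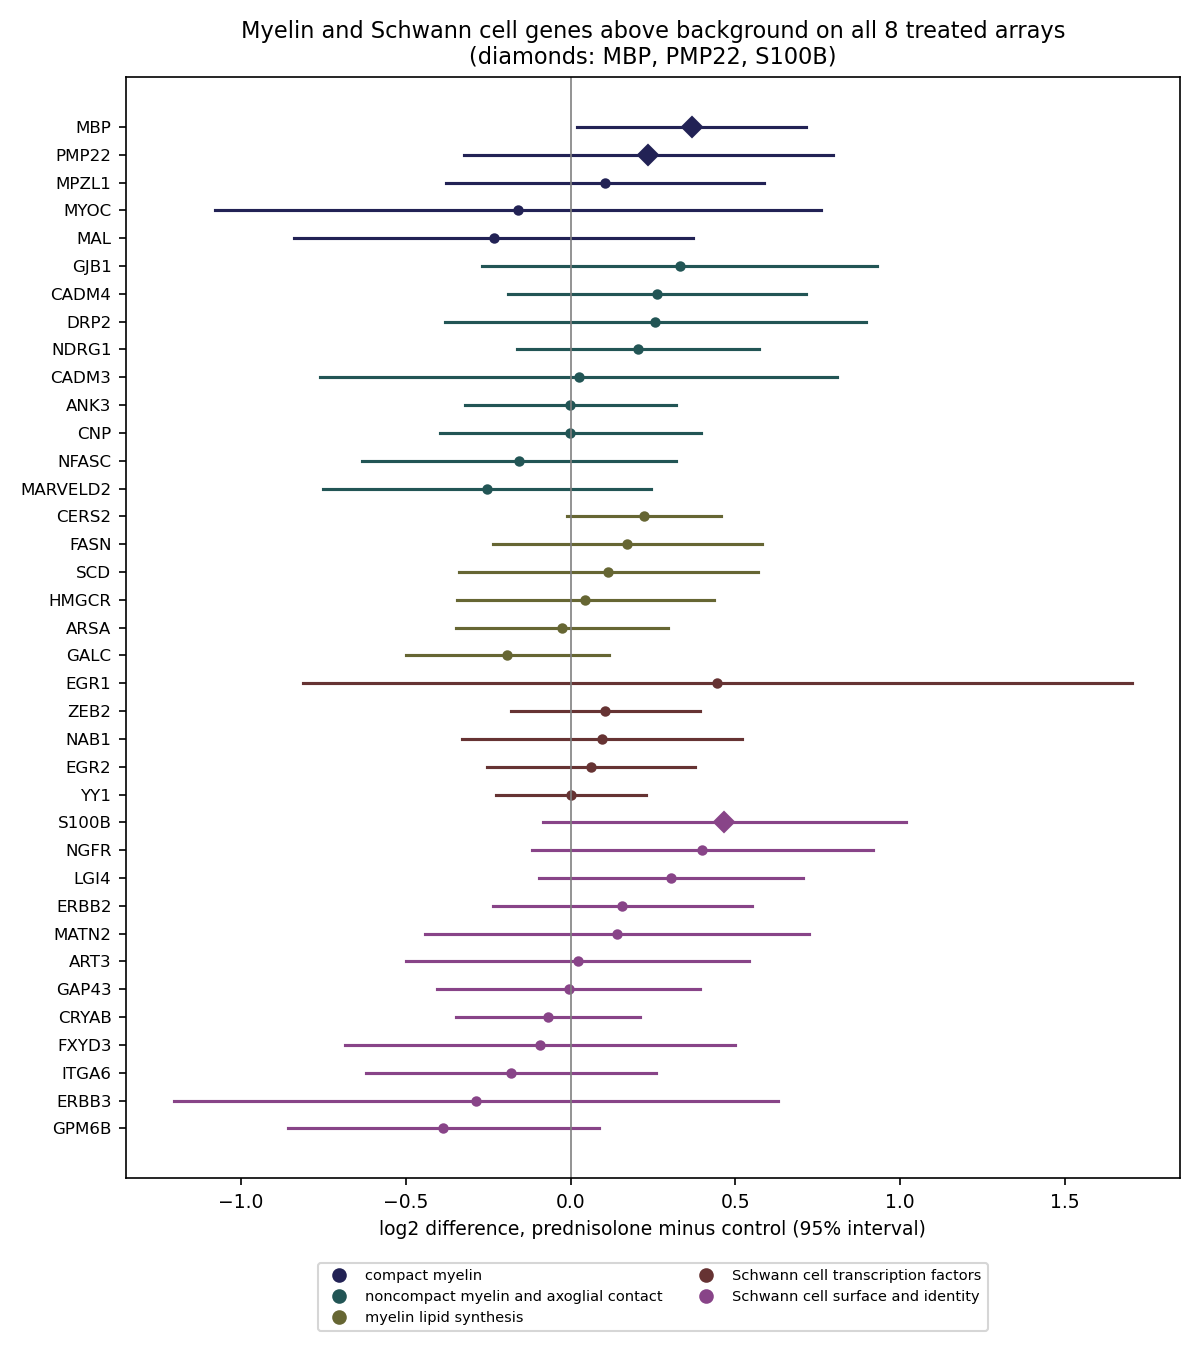
Log2 difference, prednisolone minus control, with its 95% interval from the limma fit, for the 37 genes of the 5 myelin and Schwann cell lists that were well above background on all 8 treated arrays; colours mark the lists and diamonds MBP, PMP22 and S100B. Of these genes 23 lie above and 14 below 0, and the MBP interval is the only one that does not include 0. Of all 10247 genes detected in this way, 5572 lie above 0.

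Axon and endplate genes gave the same picture of overlapping groups. Of 12 measured axon genes, 9 had the higher mean in treated animals (8 to 10 under other scalings), with a median of 0.079. The deubiquitinase UCHL1, abundant in neurons, lay above the control median in all 8 treated animals, with a difference of 1.10 (95% interval -0.31 to 2.50; limma, adjusted p = 0.993). NEFH, a neurofilament subunit, was well above background on 4 treated arrays, and CHAT, which makes acetylcholine, on none. Of 13 neuromuscular junction genes, 8 had the higher mean (7 to 9 under other scalings), with RAPSN, which clusters the acetylcholine receptor, at 0.34 (-0.17 to 0.84) and LRP4, the agrin receptor, at 0.33 (-0.16 to 0.83). A dimmer LRP4 probe, well above background on 3 treated arrays, differed by 0.0088 (-1.02 to 1.04). ACHE, which breaks down acetylcholine in the synaptic cleft, and COLQ, its collagen tail, were not above background on any treated array. Of the markers of central myelin, MOG, MAG and OLIG2 were not above background on any treated array, and OLIG1 was on all.

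The relatives of PMP22 in the epithelial membrane protein family all had a higher mean in treated animals under each of 5 scalings, and no interval excluded 0. EMP1 differed by 0.48 (95% interval -0.23 to 1.19), EMP3 by 0.32 (-0.073 to 0.71), EMP2 by 0.10 (-0.32 to 0.53) and TMEM47 by 0.060 (-0.29 to 0.41). Of 14 measured S100 genes, S100B included, 10 had the higher mean (9 to 11 under other scalings), and none had an unadjusted p below 0.05 in limma. The neutrophil calcium-binding proteins S100A8 and S100A9 differed by 0.77 (-0.59 to 2.14) and 1.12 (-0.24 to 2.49). S100A1, the main S100 protein of striated muscle, differed by -0.021 (-0.45 to 0.41) and by 0.001 with equal medians, and S100A4, a protein of fibroblasts and leukocytes, by -0.25 (-0.94 to 0.44). The other differences of this family were S100A2 0.68, S100A10 0.11, S100A11 0.0079 (-0.0011 on the values as deposited and -0.013 after cyclic loess), S100A12 0.35, S100A13 -0.20, S100A14 0.039, S100A16 -0.031, S100G 0.37 and S100Z 0.36, with all intervals including 0.

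The members were also set against scores of marker lists, described here mainly where the adjusted p was smallest. Of 42 relations between the members and 14 list scores (mean centred log2 levels of a list), none passed an adjusted p of 0.05; the smallest was 0.221. That was MBP with smooth muscle and pericyte markers (r = 0.68, unadjusted permutation p = 0.00526, rho = 0.61), with r = 0.63 within controls, 0.64 within treated animals and 0.62 without P25 and P30. Of these markers 7 of 9 had the higher mean in treated animals (6 to 7 under other scalings), with a summed intensity of 18953 to 36634 in controls and 20049 to 42219 in treated animals. MBP also ran against the testis germ cell score (r = -0.63, rho = -0.56, adjusted permutation p = 0.251), in which C20 is highest, with r = -0.87 within controls, -0.26 within treated animals and -0.57 without C20 and P31. S100B went with adipocyte markers (r = 0.54, rho = 0.57, adjusted permutation p = 0.296; r = 0.28 without C18 and P31; r = 0.52 within controls and 0.38 within treated animals). Of 11 measured adipocyte markers 10 had the higher mean in treated animals (9 to 10 under other scalings). Over the 8 of them with a value on all arrays and above background on all treated arrays, the summed intensity was 7564 to 16626 in controls and 8246 to 21528 in treated animals, and LEP was not above background on any treated array. PMP22 ran against endothelial markers (r = -0.59, rho = -0.56, adjusted permutation p = 0.296; r = -0.37 without C22 and C24; r = -0.81 within controls and -0.33 within treated animals). Of 10 endothelial markers 7 had the lower mean in treated animals (6 to 7 under other scalings), with sums of 4057 to 10068 in controls and 4794 to 6982 in treated animals. PMP22 went with leukocyte markers (r = 0.54, rho = 0.44, adjusted permutation p = 0.296; r = 0.38 without C17 and P30; r = 0.75 within controls and 0.45 within treated animals). Of 13 measured leukocyte markers 7 had the higher mean in treated animals (6 to 7 under other scalings), and over 10 of them the summed intensity was 1622 to 11756 in controls and 1893 to 5369 in treated animals. This list shares T cell genes with the thymocyte markers, which were high on C17 and P30, the control and the treated animal with the highest PMP22 level. PMP22 had r = 0.47 with the thymocyte score (rho = 0.18, adjusted permutation p = 0.469), and r was 0.14 without C17 and P30. MBP also went with the score of the myelin and Schwann cell lists, taken over 33 genes without the members (r = 0.53, rho = 0.44, adjusted permutation p = 0.296; r = 0.13 without P25 and C20; r = 0.75 within controls and 0.34 within treated animals). The part of these cells in the member values was not tested.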

How the data were processed

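The authors deposited a table of processed intensity, linear in scale, with a value for each spot of each array. Agilent Feature Extraction made this detrended, background-subtracted signal per the labels' design text, in version 9.5.1.1 per the file headers of the treated arrays. The submitters' processing notes name R 2.11.1. The deposited values are not that signal unchanged. For an MBP spot they were 144.3 on P27, against 109.1 in the scanner software's processed signal, and 107.9 on P28, against 121.5. The deposited values were thus changed after Feature Extraction, by a method not stated in what was used here. The change was not 1 factor per array. On P31 an MBP spot had 108.9 against 125.5 in the processed signal, and a PMP22 spot 3021 against 3192. Scanner files of the 8 treated arrays gave the deposited mean and background intensity, spot gaps and flags; scanner files of controls were not used here.

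After a log2 transform, arrays were aligned at the 75th percentile of the 14324 probes that had a value everywhere, and spots of a probe were averaged. Probes with at least 3 values per group were tested (20894) with limma 3.58.1 in R 4.3.3, without covariates, with Benjamini-Hochberg adjustment over all probes. Genes were named through a RefSeq table (assembly ARS-UCD2.0, for names only) and the array annotation, which named 17259 of 21475 probes, and the brightest probe stood for a gene. A probe is well above background where the scanner software flagged at least 1 of its spots so. Exact permutation tests used all 6435 splits (smallest p = 0.000155), and correlations used 100000 permutations. The fit was tested on simulated data.

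Named genes are the members, the 3 genes of smallest p in each nerve list, a fixed set of myelin genes, the 5 genes most like each member, and the PMP22 and S100 families. Some genes of these lists enter the counts and are not reported here by name. The members and lists were chosen with earlier results of these data known. Alternatives were other scalings, variance models and array weights, dim-probe filters, an offset, and leaving out animals. The number of arrays limits the precision. The p-values judge differences and correlations against the spread between these animals, and do not separate treatment from extraction kit.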

Additional observations from a re-analysis of the deposited data

Results flagged for a closer look

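Within 66 groups of values tested with Dixon's criterion, 4 had an animal far from the others; chance flags about 1 in 20 such groups. MBP was lowest on C20, at a log2 level of 5.75, against 6.29 to 6.62 in the other controls. CADM4 was highest on P27, at 6.74, against 5.62 to 5.96 in the other treated animals. S100A11 was highest on C22, at 11.64, against 11.08 to 11.32 in the other controls. S100A14 was highest on P30, at 15.16, against 14.17 to 14.60 in the other treated animals.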

How the results depend on the processing

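Each member difference kept its sign, and stayed short of an adjusted p of 0.05, under all 24 alternatives that gave a value. MBP ranged from 0.24 to 0.49, PMP22 from 0.088 to 0.34 and S100B from 0.28 to 0.59, and the smallest adjusted p was 0.703, 0.843 and 0.716. Leaving out each animal in turn gave 0.27 to 0.45 for MBP, 0.088 to 0.32 for PMP22, 0.34 to 0.59 for S100B, 0.0096 (without C23) to 0.10 (without C21) for the median of the myelin and Schwann cell genes, and 0 to 1 probes past the threshold. A count of 1 probe arose without C23, without P31, and also without C20 and P31 together (1 probe); no member's probe was called. MBP had an unadjusted p below 0.05 in 6 of these 15 fits and S100B in 2. The correlation of MBP and S100B, 0.056, reversed to -0.26 without C20 and P31 and to -0.055 on the values as deposited, and was 0.23 after quantile normalization. The MBP range over the treated arrays, 0.97, was 2.12 with normexp background correction over all spots. It was 0.64 when spots of flagged background, and spots not above their background, were left out. On P29 the lowest mean minus background in the fit over all spots was -65153. In the fit with spots left out, S100B had no value on P25. Averaging all probes of a gene gave no separate value, since each member has 1 probe. No paired analysis was possible because the groups share no replicate numbers. The dim MBP probe and the 15 arrays limit precision.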
